A study of Mus musculus with 4 samples.

Results

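The array labelled Bmi1ΔIEC Mel18ΔIEC (DKO), from mice with both genes deleted in the intestinal epithelium, was compared with the array labelled WT across all genes measured. Members were taken as probe sets with 1 gene symbol, using the brightest probe set of each gene, which gave 19946 genes. Of these, 12527 reached a log2 intensity of 6 on at least 1 of the 4 arrays and were analysed. Every value below is a log2 intensity, or the difference of DKO minus WT on that scale, where a difference of 1 is 2-fold. There was 1 array a side, so no difference has a replicate check, and counts and differences are given without a test.

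Polycomb repressive complex 1 places a ubiquitin mark on histone H2A and compacts chromatin, which holds many developmental genes and cell cycle inhibitors silent. Its RING ubiquitin ligases work with a PCGF partner, and Bmi1 (Pcgf4) and Mel18 (gene symbol Pcgf2) are closely related partners of this kind. Bmi1 is known for sustaining stem cells, largely by repressing the Cdkn2a locus, and the colonic epithelium is renewed from stem cells at the crypt base.

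All mice were C57BL/6, 6 to 8 weeks old and sex-matched within the study. They received azoxymethane, a colon carcinogen, at 10 mg/kg, and 5 days later began 5 days of 3.5% dextran sulfate sodium in the drinking water, which injures the colonic lining. Colons were taken on day 12, during early tumour formation, and epithelial cells were shaken free with EDTA without any sort being described. WT mice had the same carcinogen and colitis, so the comparison lies within injured tissue. With 1 array a side, the deletions cannot be told apart from other differences between the samples. The remaining arrays, labelled Bmi1ΔIEC (Bmi1_KO here) and Mel18ΔIEC (Mel18_KO here), hold 1 sample each and are given beside DKO and WT. Where levels follow without array names, 4 values run in the order DKO, Bmi1_KO, Mel18_KO and WT, and 3 values leave out DKO. The Cre driver, the deleted exons and the number of mice behind each array are not stated in the sources used.

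The levels of the deleted genes do not check the genotypes. Bmi1 read 7.64 on DKO and 7.43 on Bmi1_KO, with 6.999 on Mel18_KO and 7.25 on WT. Pcgf2 read 6.81, 6.72, 6.84 and 6.97 on the same arrays. Each differed between DKO and WT by less than 0.4, and a probe set that spans the transcript can still read exons that remain. Directions below rest on the labels.

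DKO differed from WT at many genes in both directions. A 2-fold higher level was found for 918 genes (7.33% of those analysed) and a 2-fold lower level for 1026 (8.19%), while 10583 lay within 2-fold. Larger differences leaned the other way: 228 genes were 4-fold or more above WT and 52 were 4-fold or more below it, and 28 and 14 were at least 8-fold apart. The seminal vesicle genes described below make up 10 of those 14, and without them 4 genes were at least 8-fold lower. At 16-fold, 6 genes were higher and 10 lower, or 2 without the seminal vesicle genes, Scd1 and the gene model 9530003J23Rik. Of these, Scd1 was low on DKO alone. For 9530003J23Rik both single-deletion arrays read close to DKO, so WT alone was high, and the part of the seminal vesicle material on WT was not tested. The median over all genes was -0.05, with quartiles of -0.47 and 0.30. Centring each array on the median of the genes analysed moved this median to 0.09 and turned the split into 1110 higher and 719 lower, so the balance between directions depended on scaling. Genes of middle brightness were the ones most often lower: between log2 levels of 8 and 9, 12.4% were 2-fold lower, against 2.00% above a level of 11. Among the higher genes 206 (22.4%) read under 6 on WT, near background, and 107 of the lower genes (10.4%) read under 6 on DKO, where differences are imprecise. The floor was passed through DKO alone by 387 genes and through WT alone by 86, and such genes could hardly point the other way. In the gene lists described below those passing through DKO alone numbered at most 3 a list, except for 4 endothelial markers and 7 C-type lectin receptors.

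**Figure D1:**
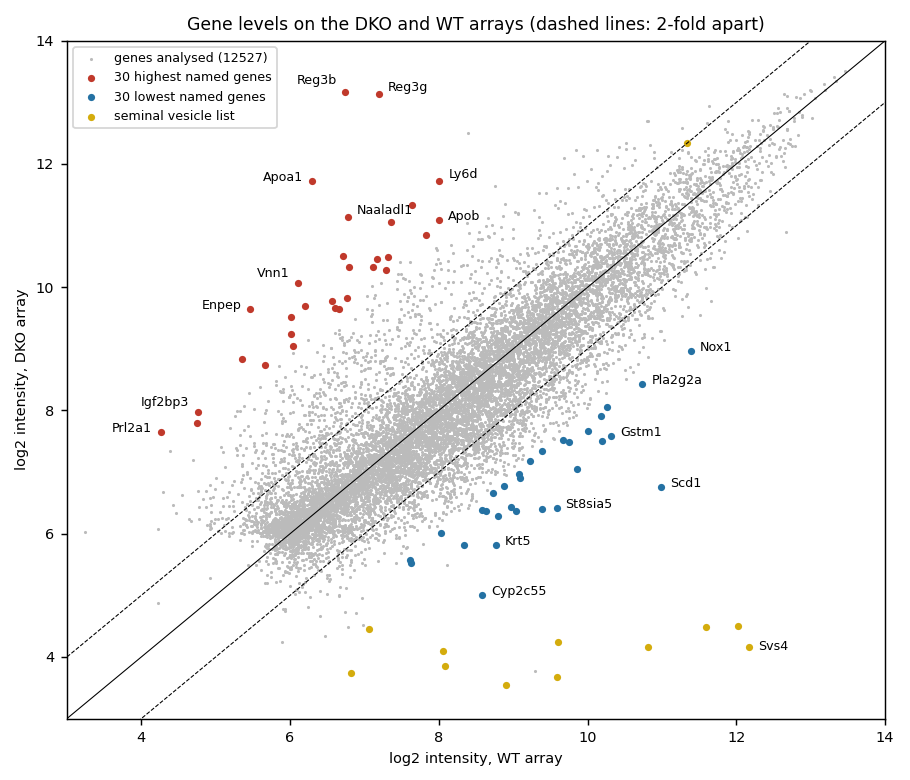
Log2 intensity of each of 12527 genes on the WT array (horizontal axis) and the DKO array (vertical axis), with the 30 highest named genes in red, the 30 lowest in blue and 12 seminal vesicle genes in yellow. The solid line marks equal levels and the dashed lines mark 2-fold. Reg3b and Reg3g lie farthest above and seminal vesicle genes farthest below, though 1 of those 12 lies just above the upper dashed line.

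Both single-deletion arrays lay near WT for most of these genes. Among the 918 higher genes, 829 had both single arrays nearer WT than DKO, 70 had only Bmi1_KO nearer DKO, 12 had only Mel18_KO nearer DKO, and 7 had both. Among the 1026 lower genes the same counts were 979, 21, 6 and 20. On a scale with WT at 0% and DKO at 100%, the median higher gene lay at 13.6% on Bmi1_KO and at -9.62% on Mel18_KO, where 598 of the 918 read below WT. The median lower gene, seminal vesicle genes left out, lay at 14.6% and 11.5%. WT sets the zero of this scale, so noise on that array shifts both single arrays the same way. There were 629 genes (5.02% of those analysed) on DKO at least 2-fold above each other array and 591 (4.72%) at least 2-fold below each.

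**Figure D2:**
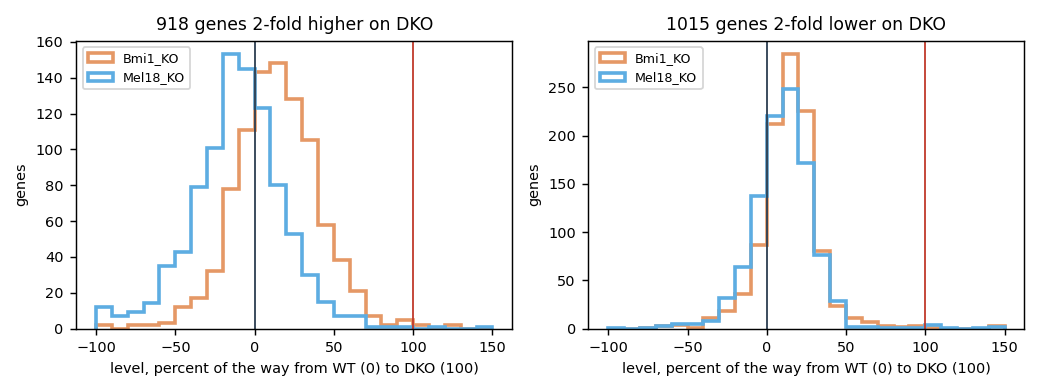
Histograms of where Bmi1_KO and Mel18_KO lay between WT (0 percent) and DKO (100 percent) for 918 genes at least 2-fold higher on DKO (left) and 1015 at least 2-fold lower without the seminal vesicle genes (right); the vertical axis counts genes, and values beyond -100 or 150 are drawn at the edge. On the left Bmi1_KO centres at 13.6 percent and Mel18_KO at -9.62 percent, and few genes on either side pass 50 percent.

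The arrays differed in cells other than epithelium, which bears on what follows. Epithelial markers were level: the 10 defining genes, among them Epcam, Cdh1, Krt8 and Vil1, had a median difference of 0.13, all within 1.5-fold. Of all genes analysed 14.3% were 1.5-fold higher and 20.1% lower. These markers were bright, with a median level of 12.20 on DKO and 11.90 on WT, and bright genes differed less often. Above a level of 11, 4.62% of genes were 2-fold higher and 2.00% lower, against 7.33% and 8.19% of all genes. The 10 markers had a summed intensity of 44660 on DKO and 43230 on Bmi1_KO, with 44330 on Mel18_KO and 41230 on WT. Leukocyte-defining markers were not level. All 10 of 10 were at least 2-fold higher on DKO than on WT (median 2.00, from 1.09 for Cd48 to 2.34 for Ptprc). Cd48 passed the floor through DKO alone and so had to be higher. The summed intensity of the 10 markers was 16830 on DKO and 7249 on Bmi1_KO, with 2479 on Mel18_KO and 4247 on WT. WT therefore read above Mel18_KO, and DKO above all. Fibroblast markers summed to 10750 on DKO and 6353 on Bmi1_KO, with 2848 on Mel18_KO and 3968 on WT, and endothelial markers to 2605, 1392, 1200 and 1197. In a bulk sample more cells of a type and more RNA per cell cannot be told apart.

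Marker lists of leukocyte types differed both in their median difference and in brightness. The 16 neutrophil markers had a median of 2.25 with 15 at least 1.5-fold higher, and summed to 31020 on DKO and 15940 on Bmi1_KO, with 2497 on Mel18_KO and 6845 on WT. Mononuclear phagocyte markers (15 measured) had a median of 1.91 with 13 higher, and summed to 12480 against 3909 on WT. Of these 15 markers 3 passed the floor through DKO alone and so had to be higher. The same held for 1 T and NK cell marker and 2 B and plasma cell markers. T and NK cell markers reached a median of 0.63 with 8 of 15 higher, led by Il2ra (1.71) and Cd3g (1.28), while Cd8a (6.16 on DKO, 5.98 on WT) and Cd4 (5.96 and 5.66) stayed near background. The median level of this list was 6.65 on DKO and 5.98 on WT, against 10.5 and 8.2 for neutrophil markers. Differences near background are imprecise, so the list medians do not rank the cell types. Of 9 B and plasma cell markers 3 were higher, with Jchain, the chain that joins secreted antibodies, at 9.15 on DKO and 5.90 on Bmi1_KO, with 7.08 on Mel18_KO and 6.24 on WT. Of 10 smooth muscle markers 2 were higher and 1 lower, where 14.3% of all genes analysed were higher and 20.1% lower. Their median was 0.08 against WT and 0.53 against the mean of the single deletions. The 5 enteric neuron and glia markers had a median of 0.10, with the receptor Ret higher by 2.63.

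WT carried transcripts of the seminal vesicle, a male accessory gland. Of 12 such genes 11 were at least 2-fold lower on DKO and 1 was 2-fold higher (1.004), with a list median of -5.36. Svs4 read 4.16 on DKO and 5.73 on Bmi1_KO, with 4.67 on Mel18_KO and 12.17 on WT. Against the mean of the single-deletion arrays the list median was -0.33. These genes make up 11 of the 52 genes at least 4-fold lower, and they were left out of the named genes. Y-linked Kdm5d (8.28, 8.01, 8.11 and 7.96) and Uty were measured on all 4 arrays and Xist was dim on all. Because of this material on WT, differences from the mean of Bmi1_KO and Mel18_KO are given beside those from WT where they differ.

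The Reg3 lectins were the highest genes. Reg3b and Reg3g are secreted C-type lectins that epithelial cells release against gut bacteria. Reg3b read 13.18 on DKO and 7.77 on Bmi1_KO, with 8.32 on Mel18_KO and 6.73 on WT, and Reg3g read 13.14, 7.64, 7.51 and 7.19. The highest level of either gene on another array was thus 8.32, and DKO stood far above it. Reg4, a related lectin of colonic secretory cells, read 11.34 on DKO and 12.13 on WT, with 11.86 on Bmi1_KO and 11.55 on Mel18_KO between them. Reg3a stayed under the floor but was also highest on DKO (5.83 against 4.13, 4.33 and 4.09). Reg3b and Reg3g lie close together on chromosome 6 and resemble each other in sequence, so their probe sets may share signal.

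Their promoters are shown because these genes led the comparison together. Each window runs from 250 bases before to 50 after the RefSeq start on the gene's strand (RefSeq, build GRCm38.p6): Reg3b at chr6:78370635-78370934, plus strand, and Reg3g at chr6:78468825-78469124, minus strand. Capitals mark the TATA motif TATAAA found on either strand.
Reg3b: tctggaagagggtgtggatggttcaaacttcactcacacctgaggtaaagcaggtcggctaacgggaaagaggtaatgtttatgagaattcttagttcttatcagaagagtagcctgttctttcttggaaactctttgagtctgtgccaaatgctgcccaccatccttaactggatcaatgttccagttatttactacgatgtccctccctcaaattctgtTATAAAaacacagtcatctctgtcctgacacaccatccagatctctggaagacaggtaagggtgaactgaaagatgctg
Reg3g: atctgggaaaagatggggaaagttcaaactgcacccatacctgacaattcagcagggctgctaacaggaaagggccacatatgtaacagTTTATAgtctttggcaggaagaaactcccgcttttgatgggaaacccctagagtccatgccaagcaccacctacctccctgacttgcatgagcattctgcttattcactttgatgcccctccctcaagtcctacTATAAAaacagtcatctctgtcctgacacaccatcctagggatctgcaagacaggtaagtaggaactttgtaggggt
Reg3b holds the motif on its own strand, its first base 29 bases before the start. Reg3g holds it on its own strand 27 bases before the start, and on the opposite strand 161 bases before. TATAAA occurs in 14.2% of all 27025 promoter windows of the table. A match of letters describes the window only.

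Genes of lipid absorption followed. Enterocytes package dietary fat with apolipoproteins into chylomicrons, mostly in the small bowel. Of 23 measured genes of this group 17 were at least 1.5-fold higher on DKO and 0 were lower, with a median of 1.39. The median against the single deletions was 1.35. Apoa1, chief protein of high-density lipoprotein, read 11.73 on DKO and 6.40, 6.56 and 6.29 on Bmi1_KO, Mel18_KO and WT. Apob, the structural protein of chylomicrons, read 11.09 on DKO and 7.18 on Bmi1_KO, with 8.52 on Mel18_KO and 8.00 on WT. Mttp, which loads lipid onto it, read 9.78 against 6.29, 6.57 and 6.56. DKO stood clear of the other arrays for each of these genes. Those arrays lay close together for Apoa1 and Mttp and farther apart for Apob.

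The sterol pump made of Abcg5 and Abcg8, which returns plant sterols to the lumen, was higher in both parts (2.53 and 3.06), as was Creb3l3 (2.27), a transcription factor of lipid metabolism. The fatty acid carrier Fabp2 (0.13), the vesicle protein Sar1b (0.01) and Apoa2 (-0.27) were among the 6 within 1.5-fold. Apoa1, Apoc3 (1.26) and Apoa4 (2.10) are neighbours in 1 gene cluster, and all 3 were at least 2-fold higher. The pancreatic-type lipase Pnliprp2 (10.85 on DKO, 7.93, 7.42 and 7.83 elsewhere) and Vnn1, a pantetheinase of the enterocyte surface (10.07 against 5.93, 6.48 and 6.11), were among the 30 highest genes.

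**Figure D3:**
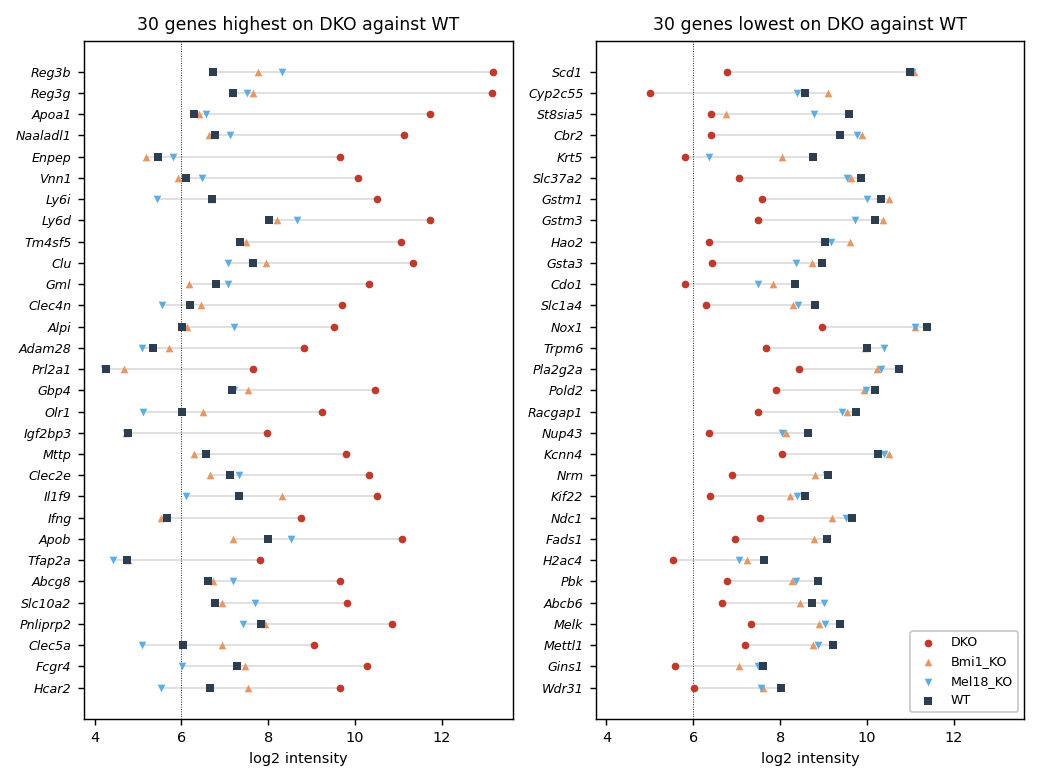
Log2 intensity on the 4 arrays (horizontal axis, 1 symbol per array) of the 30 genes highest (left) and lowest (right) on DKO against WT by the naming rule; the dotted line marks the floor of 6. For most genes the 3 other arrays sit together and DKO lies apart, whereas St8sia5 and Krt5 are also low on 1 single-deletion array.

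Digestive enzymes and nutrient carriers of the brush border were higher in part. Of 17 peptidases 13 reached the floor, of which 7 were higher and 1 lower (median 0.60, but 0.20 when no floor was set). Naaladl1, a peptidase of the ileal brush border, read 11.13 on DKO and 6.63 on Bmi1_KO, with 7.12 on Mel18_KO and 6.78 on WT. Enpep, an aminopeptidase that cleaves acidic residues, read 9.64 against 5.18, 5.81 and 5.46. Anpep (1.75) and both meprin subunits, Mep1a (1.69) and Mep1b (1.67), differed less, and Dpep1 was lower (-1.18). The intestinal alkaline phosphatase Alpi read 9.51 on DKO and 6.14 on Bmi1_KO, with 7.20 on Mel18_KO and 6.01 on WT, so Mel18_KO lay about a log2 unit above WT for this gene.

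Of 24 disaccharidases and nutrient transporters 15 reached the floor, of which 8 were higher and 0 lower (median 0.63, but 0.15 when no floor was set). The nucleoside carrier Slc28a2 (2.84), the phosphate carrier Slc34a2 (2.62) and both subunits of the cystine transporter, Slc7a9 (2.25) and Slc3a1 (1.98), led them. The sodium-glucose carrier Slc5a1 read 10.18 on DKO and 10.56 on WT, a difference of -0.38, so not every absorptive carrier was higher. Slc10a2, the sodium-dependent bile acid transporter of the ileum, read 9.82 on DKO and 6.93 on Bmi1_KO, with 7.69 on Mel18_KO and 6.76 on WT. The other bile acid genes did not follow as a list (8 measured, median 0.14): the bile acid receptor Nr1h4 gave 0.19, the basolateral exporter subunit Slc51b gave 0.50 and the exporter Abcc3 gave -0.79. Fabp6, the cytosolic bile acid carrier, read 4.77 on DKO and 6.80 on Bmi1_KO, with 7.35 on Mel18_KO and 5.93 on WT, with DKO lowest.

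Carboxylesterases, which cut ester bonds in lipids and drugs, were higher in 6 of 9 cases and lower in 2 (median 0.89, and 1.30 against the single deletions). Ces2a read 9.53 on DKO and 7.77 on Bmi1_KO, with 8.46 on Mel18_KO and 7.76 on WT. Ces2f (1.60), Ces2b (1.31) and Ces2e (0.89) followed, and Ces2g (-0.61) and Ces1g (-0.64) were lower. Ces3a (0.80) and Ces3b (2.03) passed the floor through DKO alone and so had to be higher. Members of this family resemble each other, and their probe sets may share signal.

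Among 15 transcription factors of gut regions, Gata4 differed most. Gata4 is a factor of the proximal small bowel and is normally silent in colon. It read 8.93 on DKO and 6.46 on Bmi1_KO, with 6.17 on Mel18_KO and 6.04 on WT. Gata5 (0.90), Pdx1 (0.89) and Onecut2 (0.80) were also higher but dim, with DKO values of 6.996, 6.57 and 7.14. Prdm1, a repressor active in the immature intestine and in plasma cells, was higher by 1.56. Gata6 (-0.09), Hnf4a (-0.02), Klf4 (0.04) and Klf5 (0.11) were level, and the hindgut factor Cdx1 was lower (-1.36; 8.21 on DKO and 9.40 to 9.57 elsewhere). Of the list 7 were higher and 2 lower, with a median of 0.11.

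Several genes outside the lists stood among the 30 highest genes. Igf2bp3, a fetal RNA-binding protein, read 7.98 on DKO and 4.73 on Bmi1_KO, with 4.73 on Mel18_KO and 4.76 on WT. Tfap2a, a transcription factor of ectoderm, read 7.80 against 4.78, 4.43 and 4.74. Prl2a1, a placental member of the prolactin family, read 7.65 against 4.68, 4.21 and 4.26. On the other 3 arrays Igf2bp3, Tfap2a and Prl2a1 lay near background, and only DKO carried a clear signal. Gml, a GPI-anchored protein of the Ly6 family, read 10.32 against 6.17, 7.07 and 6.80, and Clec2e, a lectin-like ligand of NK receptors, read 10.32 against 6.65, 7.32 and 7.11. Tm4sf5, a tetraspanin-like membrane protein, was at 11.05 on DKO and 7.32 to 7.49 elsewhere.

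Genes of colonic ion and water transport leaned lower. Of 30 measured 11 were at least 1.5-fold lower and 6 higher (median -0.38, and -0.42 against the single deletions). Trpm6, the apical magnesium channel, read 7.67 on DKO and 9.95 on Bmi1_KO, with 10.39 on Mel18_KO and 10.00 on WT. Kcnn4, a calcium-gated potassium channel, read 8.05 against 10.51, 10.38 and 10.26. The chloride-bicarbonate exchanger Slc26a3 (-1.60) and the water channel Aqp8 (-1.38), products of mature colonocytes, were also lower, and the calcium channel Trpv6 was higher by 2.61. The sodium-proton exchanger Slc9a3 was higher by 0.82.

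In the chloride secretion group (15 measured) 4 were lower and 1 higher (median -0.40). Of all genes analysed 20.1% were 1.5-fold lower and 14.3% higher. The channel Cftr gave -1.01, and the potassium channel subunits Kcnq1 and Kcne3, which sustain secretion, gave -1.49 and -0.93. Guca2a, the hormone guanylin, read 11.99 on DKO and 11.31 on Bmi1_KO, with 11.32 on Mel18_KO and 10.30 on WT. All 3 deletion arrays lay above WT for guanylin.

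Cell junction genes differed member by member. Among 23 claudins and tight junction proteins 7 were higher and 2 lower (median 0.30). Cldn4, a sealing claudin, read 12.10 on DKO and 10.77 to 11.26 elsewhere, and Cldn1 was higher by 1.82 from a dim level (6.70 on DKO, 4.88 on WT). Pore-forming Cldn2 (-1.10) and Cldn15 (-1.47) were lower. In the desmosome and keratin list (23 measured) 6 were lower and 2 higher, where 20.1% of all genes analysed were lower and 14.3% higher. Basal keratins account for its low end: Krt5 read 5.82 on DKO and 8.05 on Bmi1_KO, with 6.36 on Mel18_KO and 8.76 on WT, Krt14 read 6.41, 7.96, 7.17 and 8.39, and Krt17 read 6.21, 7.56, 6.01 and 7.89. These 3 genes of stratified epithelium were low on DKO and Mel18_KO and high on Bmi1_KO and WT, while the colonic keratin Krt20 was at 12.23 on DKO and 11.71 on WT.

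Secretory cell genes were mixed. The goblet cell list (22 measured) had 4 higher and 2 lower, with a median of 0.32, where 14.3% of all genes analysed were higher and 20.1% lower. The membrane mucin Muc1 read 11.36 on DKO and 8.54 on Bmi1_KO, with 9.06 on Mel18_KO and 9.69 on WT, and the antimicrobial ribonuclease Ang4 was lower (-1.29). Atoh1, the factor that sets secretory fate, gave 0.56. In the enteroendocrine list 5 of 22 were higher and 2 lower (median 0.23, and 0.60 against the single deletions, where 11 were higher). Cpe, which trims prohormones, read 10.89 on DKO and 7.76 on Bmi1_KO, with 8.65 on Mel18_KO and 8.54 on WT.

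The hormone Cck (1.85), the serotonin enzyme Tph1 (1.33) and the granule protein Chgb (1.02) were higher, while the progenitor factor Neurog3 was lower (5.60 on DKO, 6.99 on WT) and the colonic hormone Insl5 gave -0.97. The lysozyme gene Lyz1 was higher by 1.60, and Pla2g2a, a secreted phospholipase with antimicrobial activity, was lower: 8.43 on DKO and 10.24 on Bmi1_KO, with 10.31 on Mel18_KO and 10.74 on WT.

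Signalling lists differed in direction. BMP and TGF-beta genes were higher in 16 of 26 cases and lower in 0 (median 0.66, and 0.66 against the single deletions). Inhba, the activin A subunit, read 10.21 on DKO and 7.97 on Bmi1_KO, with 6.43 on Mel18_KO and 7.49 on WT, and Bmp3, a BMP antagonist, read 9.12 against 6.81, 6.46 and 6.92. The target genes Id2 (1.94) and Tgfbi (1.76) were higher as well, whereas Id1 (-0.25) and the pseudoreceptor Bambi (-0.50) were not. Inhba, Id2 and Tgfbi followed the order of the leukocyte markers across the arrays, with Mel18_KO lowest, and the part of those cells was not tested.

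WNT pathway genes, which maintain crypt stem cells, held 8 of 22 members lower and 0 higher (median -0.17, but 0.06 when no floor was set). Ascl2, a stem cell transcription factor, read 5.83 on DKO and 7.89 on Bmi1_KO, with 7.24 on Mel18_KO and 7.78 on WT. The target Myc read 8.40 against 9.13, 9.22 and 9.92, and the feedback inhibitors Znrf3 (-1.24) and Axin2 (-1.06) were lower. Hedgehog genes (8 measured, median -0.55) had 4 lower and 0 higher, namely the co-receptor Boc (-1.10), the transducer Smo (-0.84), the epithelial ligand Ihh (-0.68) and the receptor Ptch1 (-0.63).

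In the EGF group (11 measured) the receptor Egfr (1.15) and the ligands Nrg1 (1.78) and Ereg (0.96) were higher, and the receptor inhibitors Lrig1 (-1.91) and Lrig3 (-1.39) were lower. The NOTCH list had 3 of 17 members higher and 1 lower (median 0.02), where 14.3% of all genes analysed were higher and 20.1% lower. The receptor Notch2 (0.84), the DNA-binding mediator Rbpj (0.61) and the stem cell glycoprotein Olfm4, which was dim (6.79 on DKO, 5.22 on WT), were higher, and the transcription factor Hes6 was lower (-0.91). Immediate early genes, switched on within minutes of a stimulus and also by handling of cells, were higher in 22 of 31 cases and lower in 0, with a median of 0.90. Dusp5, a phosphatase of the MAP kinase ERK, led them (9.57 on DKO, 8.02, 7.72 and 7.73 elsewhere), followed by Nr4a3 (1.61) and Dusp4 (1.56).

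**Figure D4:**
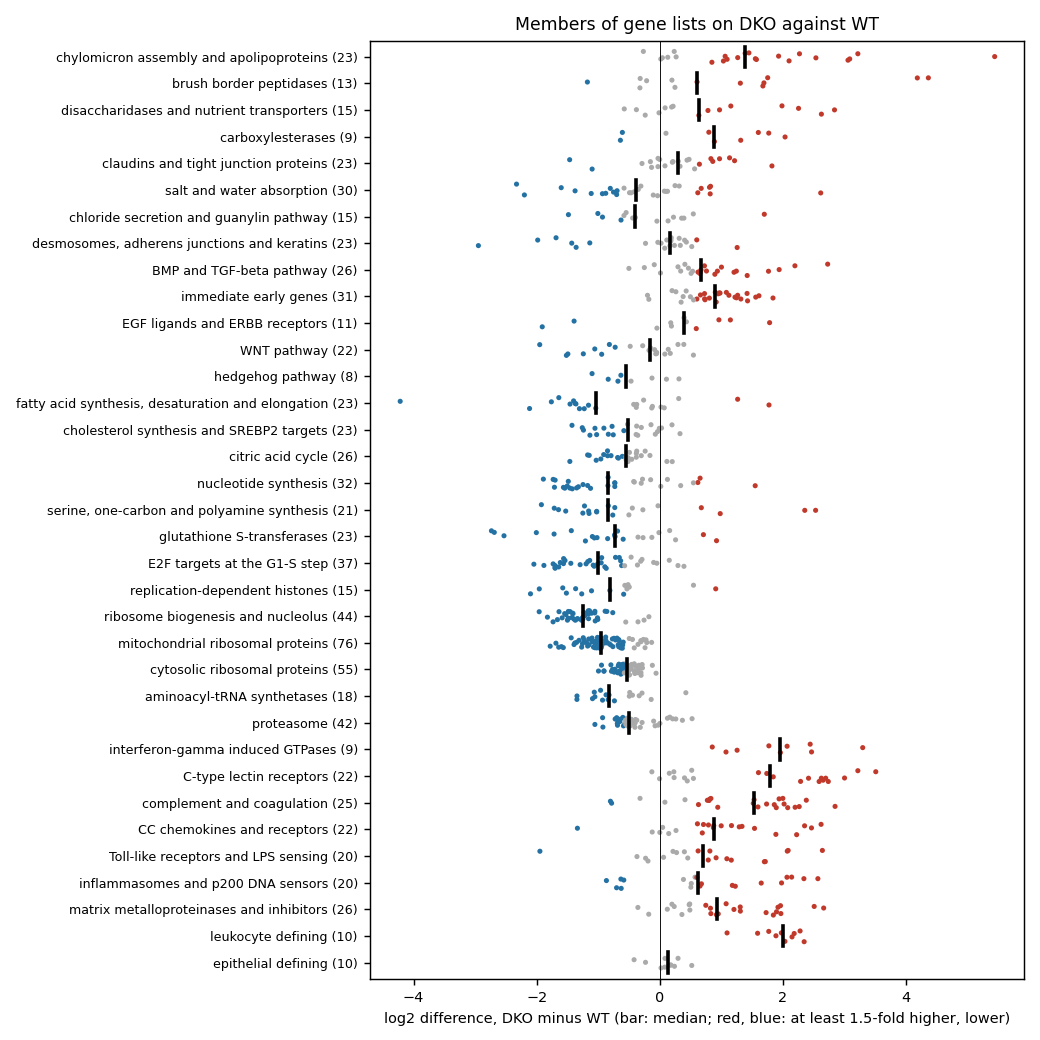
Log2 difference of DKO minus WT (horizontal axis) of each measured member of 35 gene lists (number of members in brackets), with members at least 1.5-fold higher in red, at least 1.5-fold lower in blue and others in grey, and the list median as a black bar. Interferon GTPases, leukocyte markers and C-type lectin receptors lie highest, while ribosome biogenesis, fatty acid synthesis and E2F target lists lie lowest, and epithelial markers centre near 0.

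Many genes of fatty acid synthesis and desaturation were lower. Of 23 genes 12 were at least 1.5-fold lower, all of them also 2-fold lower, and 2 were higher (median -1.04, and -1.11 against the single deletions). Scd1, which makes monounsaturated fatty acids, read 6.76 on DKO and 11.07 on Bmi1_KO, with 11.04 on Mel18_KO and 10.98 on WT, the lowest named gene. Its relative Scd2 read 10.90 against 12.64, 12.67 and 12.66. The polyunsaturated desaturases Fads1 (-2.12), Fads2 (-1.36) and Fads3 (-1.40), neighbours in 1 cluster, were lower together. So were enzymes of the synthesis itself, the synthase Fasn (-1.46), the carboxylase Acaca (-1.37) and Acly (-1.16) and Acss2 (-1.31), which supply acetyl-CoA. Of the elongases Elovl5 was lower (-1.23), while Elovl1 (-0.38), Elovl6 (-0.13) and Elovl7 (-0.12) were within 1.5-fold. Lpin2 (1.77) and malic enzyme Me1 (1.26) were the members higher on DKO.

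Cholesterol synthesis genes held 10 of 23 members lower and 0 higher (median -0.52), with Mvk (-1.43), Dhcr7 (-1.26) and Lss (-1.24) lowest. Hmgcs1 (-0.04), Fdft1 (-0.07) and Msmo1 (-0.01), enzymes of the same route, were level. Targets of the PPAR receptors were mostly level (25 measured, median -0.15), with Pdk4, a brake on glucose oxidation, higher by 1.91 and the ketone enzyme Bdh1 lower (-1.27).

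Lists of energy metabolism differed in direction. Citric acid cycle genes held 12 of 26 members lower and 0 higher (median -0.55), led by Idh2 (8.75 on DKO, 10.28, 10.32 and 10.21 elsewhere) and Fh1 (-1.17). Respiratory chain genes (75 measured) had 31 lower and 0 higher, with a median of -0.52. Glycolysis and hypoxia genes were higher in 12 of 33 cases and lower in 0 (median 0.44). Within that list the lactate exporter Slc16a3 (1.32) and the hypoxia gene Ankrd37 (1.48) were higher, while Hk1 (-0.42) and Pfkm (-0.41) were not.

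Genes that supply building blocks for growth were mostly lower. Nucleotide synthesis genes held 20 of 32 members lower and 3 higher (median -0.84). Thymidine kinase Tk1 read 7.22 on DKO and 9.03 on Bmi1_KO, with 8.90 on Mel18_KO and 9.11 on WT, and Cad, which starts pyrimidine synthesis, read 7.16 against 8.66, 8.96 and 8.88. Serine, folate and polyamine genes held 13 of 21 members lower and 4 higher (median -0.84), with Shmt2 (-1.72) and Mthfd1 (-1.65) among the lowest. The 4 higher members were the arginases Arg1 (2.53) and Arg2 (2.35), the antizyme inhibitor Azin1 (0.98) and the polyamine acetyltransferase Sat1 (0.67). Arg1, abundant in myeloid cells, read 9.64 on DKO and 8.16 on Bmi1_KO, with 6.12 on Mel18_KO and 7.11 on WT, in the order of the leukocyte markers. Slc1a4, a neutral amino acid carrier, read 6.29 on DKO and 8.30 to 8.79 elsewhere.

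Glutathione S-transferases, which couple glutathione to electrophiles, held 15 of 23 members lower and 2 higher (median -0.74, and -0.84 against the single deletions). Gstm1 read 7.58 on DKO and 10.50 on Bmi1_KO, with 10.01 on Mel18_KO and 10.31 on WT, and Gsta3 read 6.43 against 8.73, 8.37 and 8.96. All 6 analysed genes of the Gstm cluster (Gstm1, Gstm2, Gstm3, Gstm4, Gstm6 and Gstm7) were at least 2-fold lower than on each other array, but they are close in sequence and may share probe signal. Gstk1 (0.92) and Mgst2 (0.71) were higher.

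Other detoxifying enzymes had no common direction. Cytochrome P450 genes (27 measured) had 7 higher and 6 lower, where 14.3% of all genes analysed were higher and 20.1% lower. Cyp2c55, which oxidises fatty acids in colon, read 5.01 on DKO and 9.11 on Bmi1_KO, with 8.38 on Mel18_KO and 8.58 on WT. Its relative Cyp2c68 (-2.17) and Cyp2f2 (-1.80) were lower too, and Cyp2d10 (1.57) was higher. Among carbonyl and aldehyde enzymes (32 measured, 11 lower and 6 higher) Cbr2 read 6.40 against 9.88, 9.77 and 9.38, and heme oxygenase Hmox1 was higher by 2.06. The peroxisomal oxidase Hao2 gave -2.68 and Cdo1, which degrades cysteine, gave -2.53.

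Proliferation genes were mostly lower, beside level epithelial markers. The 37 targets of E2F at the entry to DNA synthesis had 27 members at least 1.5-fold lower and 0 higher (median -1.01, and -0.80 against the single deletions). Among the 30 lowest genes Racgap1, needed to split daughter cells, read 7.49 on DKO and 9.53 on Bmi1_KO, with 9.42 on Mel18_KO and 9.75 on WT. The chromosome motor Kif22 read 6.39 against 8.23, 8.39 and 8.58, and Pold2, a subunit of a replicating DNA polymerase, read 7.91 against 9.92, 9.99 and 10.18. The mitotic kinases Melk and Pbk and the replication factor Gins1 followed. Replication-dependent histones, made in S phase, held 9 of 15 members lower and 1 higher (median -0.81), with H2ac4 (-2.10) and H2bc3 (-1.96) lowest and H1f2 higher (0.91).

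Azoxymethane alkylates DNA. Repair genes for alkylated and mismatched bases held 13 of 21 members lower and 0 higher (median -0.66). Apex1, which cuts DNA at sites that have lost a base, read 7.01 on DKO and 8.57 on Bmi1_KO, with 8.71 on Mel18_KO and 8.76 on WT, and the ligase Lig1 gave -1.52. Mgmt, which removes the methyl group directly, was dim and level (6.12 and 6.05).

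Promoters of cell division genes often carry a CCAAT box and a CHR element (TTTGAA), and 2 of the lowest genes that hold both are shown for that reason. Racgap1 lies at chr15:99651607-99651906 and Kif22 at chr7:127042371-127042670, both on the minus strand, with the same window and build as above. Capitals mark CCAAT and TTTGAA on either strand.
Racgap1: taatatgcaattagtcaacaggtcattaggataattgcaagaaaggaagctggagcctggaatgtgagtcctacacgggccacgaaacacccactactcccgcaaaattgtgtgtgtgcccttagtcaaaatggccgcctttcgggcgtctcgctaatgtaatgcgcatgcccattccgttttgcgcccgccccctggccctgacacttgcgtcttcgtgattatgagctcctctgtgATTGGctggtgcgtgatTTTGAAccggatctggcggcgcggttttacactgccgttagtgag
Kif22: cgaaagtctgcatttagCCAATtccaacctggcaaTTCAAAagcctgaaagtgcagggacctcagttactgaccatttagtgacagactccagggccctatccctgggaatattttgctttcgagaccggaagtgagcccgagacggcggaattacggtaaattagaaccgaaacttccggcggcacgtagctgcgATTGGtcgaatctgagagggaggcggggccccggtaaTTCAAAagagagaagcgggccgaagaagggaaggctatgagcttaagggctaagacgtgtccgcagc
In Racgap1 the CCAAT box begins 12 bases before the start and the CHR element 6 bases after it. In Kif22 a pair lies 54 and 17 bases before the start and another pair 233 and 215 bases before. Among the 30 lowest named genes 22 had a window and 3 held both motifs, the third being Gsta3, which is no division gene.

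Over all 849 genes 2-fold lower with a window (82.7% of 1026), 11.9% held both motifs, against 7.12% of the 27025 promoters in the table. CCAAT, with or without the other motif, was in 46.6% against 37.9%, and TTTGAA in 21.0% against 18.1%. The E2F core TTCGCG was in 9.89% against 4.12%, and the E-box CACGTG in 13.3% against 7.24%, while TATAAA was in 9.19% against 14.2%. All windows were searched on both strands, and the core is part of the longer E2F site TTTCGCGC (1.41% against 0.318%). The table includes genes not measured here, so these shares compare with promoters in general. Only 76.3% of the higher genes had a window, and their shares are not given.

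Lists of the protein synthesis machinery leaned lower, to different degrees. Of 44 genes of ribosome biogenesis 40 were at least 1.5-fold lower and 0 higher (median -1.25, and -1.05 against the single deletions). Mrto4, a ribosome assembly factor, read 6.95 on DKO and 8.64 on Bmi1_KO, with 8.76 on Mel18_KO and 8.91 on WT, and the nucleolar protein Npm1 was near level (-0.26). Mitochondrial ribosomal proteins were lower in 65 of 76 cases (median -0.96), from -0.13 for Mrpl33 to -1.78 for Mrps27. Cytosolic ribosomal proteins differed less, with 24 of 55 lower, 0 at least 2-fold lower and a median of -0.54. These 3 lists had 0 members 1.5-fold higher. The cytosolic list was also brighter, with a median level of 11.76 on WT against 9.05 for ribosome biogenesis and 9.06 for mitochondrial ribosomal proteins. Above a level of 11, 2.00% of all genes were 2-fold lower, against 12.4% between 8 and 9.

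Transfer RNA synthetases were lower in 11 of 18 cases (median -0.83), translation factors in 20 of 55 (median -0.51), with Eif2b1 (-1.77) and Eif2b3 (-1.58) lowest and Eif4e3 higher (0.65), and proteasome subunits in 12 of 42 (median -0.50). Heat shock chaperones held 16 of 30 members lower and 0 higher (median -0.65), and this list moved to -0.28 against the single deletions. Its member Hspa1a, the inducible Hsp70, was highest on WT and read 8.69 on DKO and 7.57 on Bmi1_KO, with 8.59 on Mel18_KO and 9.89 on WT. Unfolded protein response genes were level as a list (37 measured, median 0.03), with the oxidase Ero1a higher by 1.47 and the chaperone Hyou1 lower (-0.86).

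Cell cycle inhibitors went in both directions. Of 9 in the list 4 were higher and 2 lower (median 0.44). The antiproliferative factors Btg2 (1.26) and Btg1 (0.89) and the inhibitor Cdkn1c (0.71) were higher, while Cdkn1b (0.38) and Cdkn2d (0.12) were within 1.5-fold. Cdkn2b, next to Cdkn2a in the genome and a known Polycomb target, read 9.07 on DKO and 8.45 on Bmi1_KO, with 8.61 on Mel18_KO and 8.14 on WT, so both single arrays lay between. Cdkn2a read 6.22, 6.10, 5.99 and 5.78, near background on all arrays. Cdkn2c (-1.64) and Cdkn3 (-1.62), which are themselves made in dividing cells, were lower. Genes activated by p53 had a median of 0.03, with Pmaip1, a cell death gene, higher by 2.05. Polycomb repressive complex 1 had 22 subunits measured, of which 4 were lower and 0 higher. Since 20.1% of all genes analysed were 1.5-fold lower, the 4 lower subunits did not stand out from genes in general. Against the mean of the single deletions the middle subunit lay at 0.002. L3mbtl2 read 6.85 on DKO and 8.18 to 8.34 elsewhere, and Cbx7 was lower by 0.9 on the log2 scale. Of 12 subunits of Polycomb repressive complex 2, which methylates histone H3, the histone-binding Rbbp7 was lower (-1.04) and the others were within 1.5-fold. Its methyltransferases Ezh2 and Ezh1 gave -0.57 and 0.55, and its core subunits Eed and Suz12 gave -0.18 and -0.13.

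Inflammatory genes were mostly higher on DKO, beside the leukocyte markers given above, whose part was not tested for any of them. CXCL chemokines and receptors were higher in 13 of 17 cases and lower in 1 (median 1.39). Cxcl2, which draws neutrophils, read 12.10 on DKO and 11.33 on Bmi1_KO, with 8.37 on Mel18_KO and 9.69 on WT, so Bmi1_KO lay nearer DKO than WT. The interferon-induced Cxcl9 read 11.16 against 8.31, 8.30 and 8.86, and here DKO stood alone. The platelet chemokine Ppbp was the member lower on DKO (8.41, 10.18, 7.38 and 9.83).

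CC chemokines and receptors were higher in 16 of 22 cases and lower in 1 (median 0.87), with the receptor Ccr1 at 8.54 on DKO and 7.19 on Bmi1_KO, with 5.42 on Mel18_KO and 5.92 on WT. Interleukin-1 family genes were higher in 9 of 14 cases and lower in 1 (median 1.5). Il1f9, an epithelial and neutrophil member also called IL-36 gamma, read 10.50 on DKO and 8.31 on Bmi1_KO, with 6.10 on Mel18_KO and 7.32 on WT. Il33, an alarmin released by damaged cells, read 10.09 against 7.79, 7.20 and 7.43.

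Interferon-gamma and most of the GTPases it induces were higher on DKO than on all 3 other arrays. Ifng itself read 8.74 on DKO and 5.53 on Bmi1_KO, with 5.66 on Mel18_KO and 5.66 on WT, that is, near background everywhere but on DKO. All 9 of 9 measured GTPases that interferon-gamma induces were at least 1.5-fold higher (median 1.96, and 1.72 against the single deletions), of which 7 lay at least 2-fold above each other array. Gbp4 read 10.46 against 7.54, 7.21 and 7.16. Gbp8 (2.46), Gbp5 (2.44), Gbp9 (1.96), Gbp7 (1.77), Gbp11 (1.25), Gbp3 (1.07) and Irgm1 (0.85) followed in that order, and Gbp11 passed the floor through DKO alone. Iigp1 departed from this pattern, at 9.22 on DKO and 8.38 on Bmi1_KO, with 8.28 on Mel18_KO and 7.16 on WT. Genes induced by type I interferon differed less: 12 of 36 were higher and 1 lower (median 0.44), and 24 were higher against the single deletions, where the median was 0.83. MHC presentation genes were higher in 11 of 22 cases (median 0.56, and 0.33 against the single deletions).

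Pattern recognition genes leaned higher. C-type lectin receptors of myeloid cells were higher in 13 of 22 cases and lower in 0 (median 1.79, and 2.12 against the single deletions), but 7 of the 22 passed the floor through DKO alone and so had to be higher. Clec4n, which binds fungal mannans, read 9.70 on DKO and 6.45 on Bmi1_KO, with 5.56 on Mel18_KO and 6.19 on WT. Olr1, a receptor for oxidised lipoprotein, read 9.24 against 6.49, 5.11 and 6.01. Toll-like receptor genes were higher in 11 of 20 cases and lower in 1, with Tlr13, a sensor of bacterial ribosomal RNA, at 9.30, 8.29, 5.74 and 6.66 and the LPS-binding protein Lbp lower (8.05 on DKO, 9.99 on WT).

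In the list of inflammasome genes and p200 DNA sensors 11 of 20 were higher and 5 lower (median 0.63). The DNA sensor Ifi209 (2.57) and the sensors Nlrp3 (2.06), Mefv (1.98), Nlrp10 (1.65) and Nlrc4 (1.18) were among the higher ones. The lower members were the gasdermins Gsdmc2 (-0.87) and Gsdmc4 (-0.70), the sensor Nlrp6 (-0.63), and the adaptors Sting1 (-0.63) and Pycard (-0.59). Complement and coagulation genes were higher in 20 of 25 cases and lower in 2 (median 1.53), led by coagulation factor F10 (2.85) and the receptor C3ar1 (2.38). Clu, a complement inhibitor and chaperone that also marks injured epithelium, read 11.33 on DKO and 7.95 on Bmi1_KO, with 7.08 on Mel18_KO and 7.64 on WT.

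Oxidant enzymes and antioxidants had 10 of 21 members higher and 3 lower. The phagocyte oxidase subunits Cybb (2.45), Ncf1 (2.16) and Ncf4 (2.02) were higher, whereas the colonic epithelial oxidase Nox1 read 8.97 on DKO and 11.10 on Bmi1_KO, with 11.12 on Mel18_KO and 11.38 on WT, and its activator Noxa1 gave -0.84. The epithelial oxidase Duox2 (1.03) and its maturation factor Duoxa2 (0.81) were higher, as was the secreted peroxidase Gpx3 (2.50), and the gut peroxidase Gpx2 was lower (-0.70). Nos2, which makes nitric oxide, was higher by 1.63 (12.26 on DKO, 10.19 to 10.93 elsewhere). In the prostaglandin list 9 of 20 were higher and 5 lower, with Ptgs2 (cyclooxygenase-2) at 11.61, 10.44, 7.86 and 9.73.

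Matrix metalloproteinases and their inhibitors were higher in 17 of 26 cases and lower in 0 (median 0.93). Mmp10 read 9.18 on DKO and 8.39 on Bmi1_KO, with 6.39 on Mel18_KO and 6.67 on WT, and Mmp3 was higher on Bmi1_KO (7.58) than on DKO (7.08), against 5.12 on WT. Collagens were higher in 11 of 34 cases but by small amounts (median 0.16, at most 1.00 for Col4a1). The Ly6 family had 8 of 21 higher and 0 lower. Ly6d, a surface protein of squamous and injured epithelium, read 11.72 on DKO and 8.20 on Bmi1_KO, with 8.66 on Mel18_KO and 8.01 on WT, and Ly6i read 10.51, 6.70, 5.43 and 6.71.

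Some of the differing genes were neighbours: 112 of the 918 higher and 50 of the 1026 lower lay in runs of at least 3. Of 12499 genes placed along the chromosomes by the RefSeq table, 44 runs of at least 3 adjacent analysed genes were 2-fold apart the same way, 30 higher and 14 lower, with 162 genes in all. The longest held 7 genes of the Ms4a cluster, membrane proteins of B cells and macrophages, from Ms4a1 (1.01) to Ms4a4a (2.58). Runs of 6 were the Trem receptors with Trem3 (2.50), the Clec4 lectins with Clec4e (2.29), the collagenase cluster with Mmp8 (2.66), and, lower, the Gstm and Svs clusters. All 6 genes of the Clec4 and Gstm runs lay at least 2-fold beyond each other array. This held for 3 genes of the Trem run, 2 of the collagenase run and 0 of the Svs run. In the collagenase run Mmp12 read 7.347 on Bmi1_KO and 7.045 on DKO. Shorter higher runs held the DNA sensors Ifi203, Ifi205, Ifi207, Ifi209 and Ifi213 (1.67 to 2.57), the Gbp genes, the C1q chains and the MHC class II genes, and lower ones held Fads1 to Fads3 and 2 runs of histone genes. Most runs are families of related sequence, and how much of their likeness comes from shared probe signal was not tested.

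**Figure D5:**
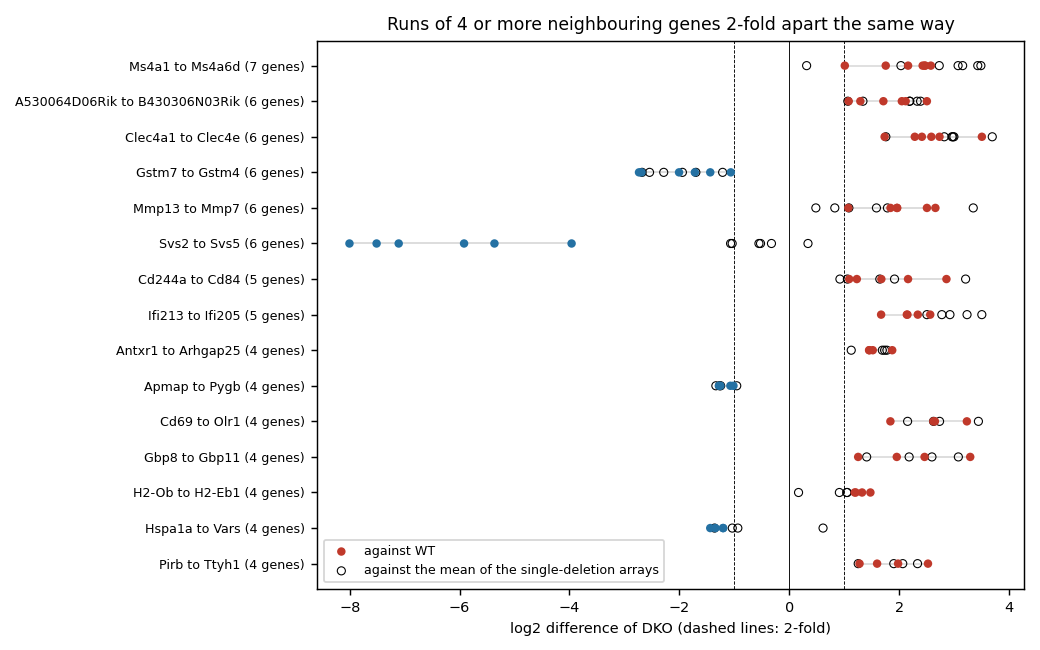
Log2 difference of DKO (horizontal axis) for each gene in 15 runs of 4 or more neighbouring genes, named by their first and last gene, against WT (filled, red higher and blue lower) and against the mean of the single-deletion arrays (open). The second row is the Trem receptor cluster; filled and open points lie together for most runs, whereas the Svs run lies far below 0 against WT and near 0 against the single deletions.

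The gastrokines Gkn1 and Gkn2, normally products of the stomach lining, formed a run with Antxr1 and Arhgap25. Gkn1 read 7.07 on DKO and 5.35 to 5.55 elsewhere, and Gkn2 read 6.79 against 5.05, 4.98 and 4.92. Both were dim, and only DKO passed the floor.

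Without the WT array most of these differences were similar. Of the 918 higher genes 799 were also at least 2-fold above the mean of the single deletions, and of the 1026 lower genes 697 were at least 2-fold below it, which leaves 119 and 329 that were not. DKO enters both differences, which makes them alike by construction. A few genes differed from WT on all 3 deletion arrays: Ceacam10 read 9.64 on DKO and 8.49 on Bmi1_KO, with 8.50 on Mel18_KO and 11.03 on WT. The WT array, highest for Ceacam10, also carried the seminal vesicle transcripts, and the part of that material was not tested. The sialyltransferase St8sia5 read 6.41, 6.75, 8.77 and 9.58, so Bmi1_KO lay with DKO and Mel18_KO with WT. The sulfotransferase Sult1d1 read 10.87, 10.24, 10.37 and 9.54, with all deletion arrays above WT.

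Other genes of the 30 lowest belonged to none of the groups above. The nuclear pore proteins Nup43 (6.37 on DKO, 8.63 on WT) and Ndc1 (7.53 and 9.66), the inner nuclear membrane protein Nrm (6.90 and 9.10) and the tRNA methyltransferase Mettl1 (7.18 and 9.22) were all more than 4-fold lower. Slc37a2, a sugar-phosphate exchanger, read 7.05 against 9.63, 9.53 and 9.85. Abcb6, a mitochondrial porphyrin carrier, read 6.66 against 8.45, 9.01 and 8.73. For each of these the 3 other arrays lay within 0.6 of each other.

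Within genes measured by more than 1 probe set the differences mostly held. The 84 genes 2-fold apart that had further probe sets over the floor had 158 of these, of which 157 pointed the same way, 94 were also 2-fold apart that way and 0 were 2-fold apart the other way.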

How the data were processed

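The authors deposited linear intensities per probe set from Affymetrix Mouse Gene 1.0 ST arrays; per the submitters' processing notes, RMA in Affymetrix Expression Console produced them. RMA gives the probes of all arrays 1 common distribution before they are summarised to probe sets, which would hide a shift common to most genes. Versions were not stated in the sources used. Of 35556 probe sets 21797 had 1 symbol, 1613 several and 12146 none. Here log2 was taken, and genes were kept with a level of at least 6 on the brightest array. Genes 2-fold apart (lists: 1.5-fold) were counted without a test, since each genotype has 1 array. Median intensity ran from 67.04 to 72.96; the number of arrays limits the precision. DKO correlated with the other arrays at 0.878 to 0.906 across genes, and these with each other at 0.978 to 0.982. Genes, lists and motifs were chosen with earlier results of these data known. The genes named were drawn from Bmi1 and Pcgf2, the 30 highest and 30 lowest with a level of at least 7 on DKO or WT (unnamed models, small RNAs, receptor segments and the seminal vesicle list left out), up to 6 members of each list by size of difference and all members of lists of up to 12, though not every gene these admit is printed. Members of neighbour runs, level or contrary members of lists, Axin2, Cd4, Cd8a, Hnf4a, Klf4, Klf5, Uty, Xist, Kdm5d, Ceacam10 and the other genes outside these ranks were named after their values were seen. Alternatives were other floors, scalings (cyclic loess with limma 3.58.1 in R 4.3.3, medians), an offset, thresholds, probe set rules, references and an additive limma fit. The fit was tested on simulated data whose changes were all additive, so that test cannot show how the fit treats genes that differ on DKO alone. Python 3.11.15 was used.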

Additional observations from a re-analysis of the deposited data

Results flagged for a closer look

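Probe sets that the annotation does not list with a gene took no part in the comparison, and they also differed between DKO and WT. Of 5446 such probe sets with a log2 level of at least 6, 346 were at least 2-fold higher on DKO than on WT (6.35%) and 207 at least 2-fold lower (3.80%). Which transcripts they read was not analysed here.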

How the results depend on the processing

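The counts of 918 genes higher and 1026 lower stayed within 1.5 times under 27 of 34 alternatives. A threshold of 1.5-fold gave 1794 and 2524, and one of 3-fold gave 432 and 198. With all probe sets as units 1395 were higher. An additive limma fit over the 4 arrays, whose only residual is the departure from additivity (1 degree of freedom), called 0 genes in either direction at an adjusted p of 0.05, with 285 higher and 551 lower at an unadjusted p under 0.05 and a smallest adjusted p of 0.549. Cyclic loess gave 1043 higher and 804 lower, and centring on the median of all probe sets gave 826 and 1235. List medians moved by less than 0.3 in 937 of 1020 cases. Their sign changed in 45 cases, over 21 lists, all with a reported median within 0.343 of 0 but for 2: the median of the glucuronosyl- and sulfotransferases went from -0.60 to 0.022 without a floor, where many dim genes enter, and that of the seminal vesicle list was 0.023 against Mel18_KO alone, which lacks the WT array. Of the differences of named genes 594 stayed within 0.3 and 140 moved further. Centring on the genes analysed, comparing with each single deletion and leaving out the seminal vesicle list were added after seeing the data. No paired analysis was possible because each genotype has 1 array. Intensities carry no counts, and genes near a level of 6 are limited by signal over background.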
